A study of Mus musculus with 4 samples.

Results

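Messenger RNA of 29 lymphocyte genes was followed in brown adipose tissue of male mice that lack ATF4 in thermogenic adipocytes (KO) and of their wild-type counterparts (WT). The genes were taken by symbol as markers of T cells (11 genes), B cells (8 genes), natural killer and cytotoxic cells (6 genes) and lymphoid cells in general (4 genes). They are 29 of the 52022 genes to which the deposited transcripts were assigned, and 15 of them were among the 15643 genes with enough counts for a test. Both genotypes had been on a diet of 60% fat for 12 weeks with food at all times. Per the labels there were 2 libraries a genotype, KO 1 and KO 2 against WT 1 and WT 2. The library names carry a prefix, S1 for KO 1 and WT 2 and S2 for KO 2 and WT 1, so each prefix holds 1 library of each genotype. The sources used here do not give the meaning of the prefix, the way ATF4 was deleted, the age of the mice or the number of animals behind each library.

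Lymphocytes are a minor population among the adipocytes, endothelial cells and macrophages of brown fat. T cells read antigen through a receptor joined to the CD3 chains, B cells through a membrane immunoglobulin joined to CD79A and CD79B, and natural killer cells through germline-encoded receptors, with granzymes and perforin as their killing proteins. Naive B cells carry the immunoglobulin heavy chains mu (Ighm) and delta (Ighd) side by side, made from the same primary transcript.

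The libraries held 25985367 to 34813870 estimated counts. Ucp1, the thermogenic protein that defines brown fat, was at 5563 to 7024 CPM (counts relative to the scaled library size) in all 4. Atf4 had 24.97 CPM in KO 1 and 24.5 CPM in KO 2, against 29.2 in the library labelled WT 1 and 107 in WT 2, so Atf4 sets the library labelled WT 1 little apart from KO. The sum of 10 skeletal muscle genes was 2798 CPM in KO 1 and 2622 CPM in KO 2, against 0.828 in the library labelled WT 1 and 1.42 in WT 2. The part of muscle tissue in the lymphocyte values was not tested.

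The 7 B cell genes other than Ighm were higher in both S1 libraries than in both S2 libraries (25.9% of all tested genes were). Ms4a1 and Pax5 had enough counts for a test through S1 alone, and Blk was not tested, so nothing is read from this count. The proximal promoters of 3 of the 7 are printed as sequence of B cell genes. RefSeq (GRCm38.p6) held promoters for 18 of the 29 genes, in 22 windows from 250 bases before to 50 bases after the transcript start. Capitals mark a match to TCCC, any 2 bases and GGGA, the core recognised by the B cell factor EBF1.
Cd79a promoter, chr7:24897247-24897546, plus strand: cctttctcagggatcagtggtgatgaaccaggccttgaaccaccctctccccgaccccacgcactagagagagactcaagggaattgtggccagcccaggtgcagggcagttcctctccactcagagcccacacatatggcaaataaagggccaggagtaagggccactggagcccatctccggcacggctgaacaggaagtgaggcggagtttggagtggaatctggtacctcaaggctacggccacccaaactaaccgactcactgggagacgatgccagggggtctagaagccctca
Pax5 promoter, chr4:44710645-44710944, minus strand: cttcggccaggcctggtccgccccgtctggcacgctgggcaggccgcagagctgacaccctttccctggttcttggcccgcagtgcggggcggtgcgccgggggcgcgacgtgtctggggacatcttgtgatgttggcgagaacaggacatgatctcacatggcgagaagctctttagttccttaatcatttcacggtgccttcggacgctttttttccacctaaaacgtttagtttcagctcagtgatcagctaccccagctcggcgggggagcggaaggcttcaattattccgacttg
Cd22 promoter, chr7:30878979-30879278, minus strand: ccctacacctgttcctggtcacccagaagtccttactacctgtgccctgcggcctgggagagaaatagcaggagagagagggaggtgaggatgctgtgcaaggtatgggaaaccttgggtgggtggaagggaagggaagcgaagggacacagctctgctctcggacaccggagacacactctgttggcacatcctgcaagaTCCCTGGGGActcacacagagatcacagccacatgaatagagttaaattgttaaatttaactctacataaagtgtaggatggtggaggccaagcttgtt
The EBF1 core, which reads the same on both strands, was in the window of Cd22 alone among the 18 genes and in 0.904% of all 32851 promoter windows. Also on both strands, the octamer ATGCAAAT was in none of the 22 windows (1.74% of all windows), and GAGGAAGT, a PU.1 core, was in that of Cd5 alone (3.2% of all windows). The RUNX core TGTGGT was in 9 of the 22 windows, those of Lck, Zap70, Nkg7, Gzma, Gzmb, Prf1, Ncr1 and Il7r, against 16.8% of all windows. None of these motifs contains another, and a match is a run of letters, not a shown binding site. Only exact matches were counted, so an unmarked window, such as that of Cd79a, may still hold a site that departs from the core.

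Most of the 29 genes were near the detection limit, set here at fewer than 10 estimated counts. In all, 23 were under 10 counts in at least 1 library, and 11 of those were under 10 in all 4, namely 5 T cell genes and all 6 natural killer and cytotoxic genes. The 6 genes with at least 10 counts in every library were Cd247, Cd79b, Cd22, Ighm, Cd52 and Il7r. The count filter kept 7 of 8 B cell genes, 4 of 11 T cell genes, 4 of 4 shared lymphoid genes and 0 of 6 natural killer and cytotoxic genes. Ms4a1, Pax5, Ccr7 and Ltb passed the filter through the S1 libraries alone, so they had to lie higher in S1. In TPM (transcript abundance relative to the library total, corrected for length), Ighm had the highest median of the 29 over the 4 libraries at 22.0, ahead of Cd52 at 11.8 and Cd247 at 1.83. The 26 others had medians under 1 TPM, of which Cd79b had the highest at 0.920.

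**Figure D1:**
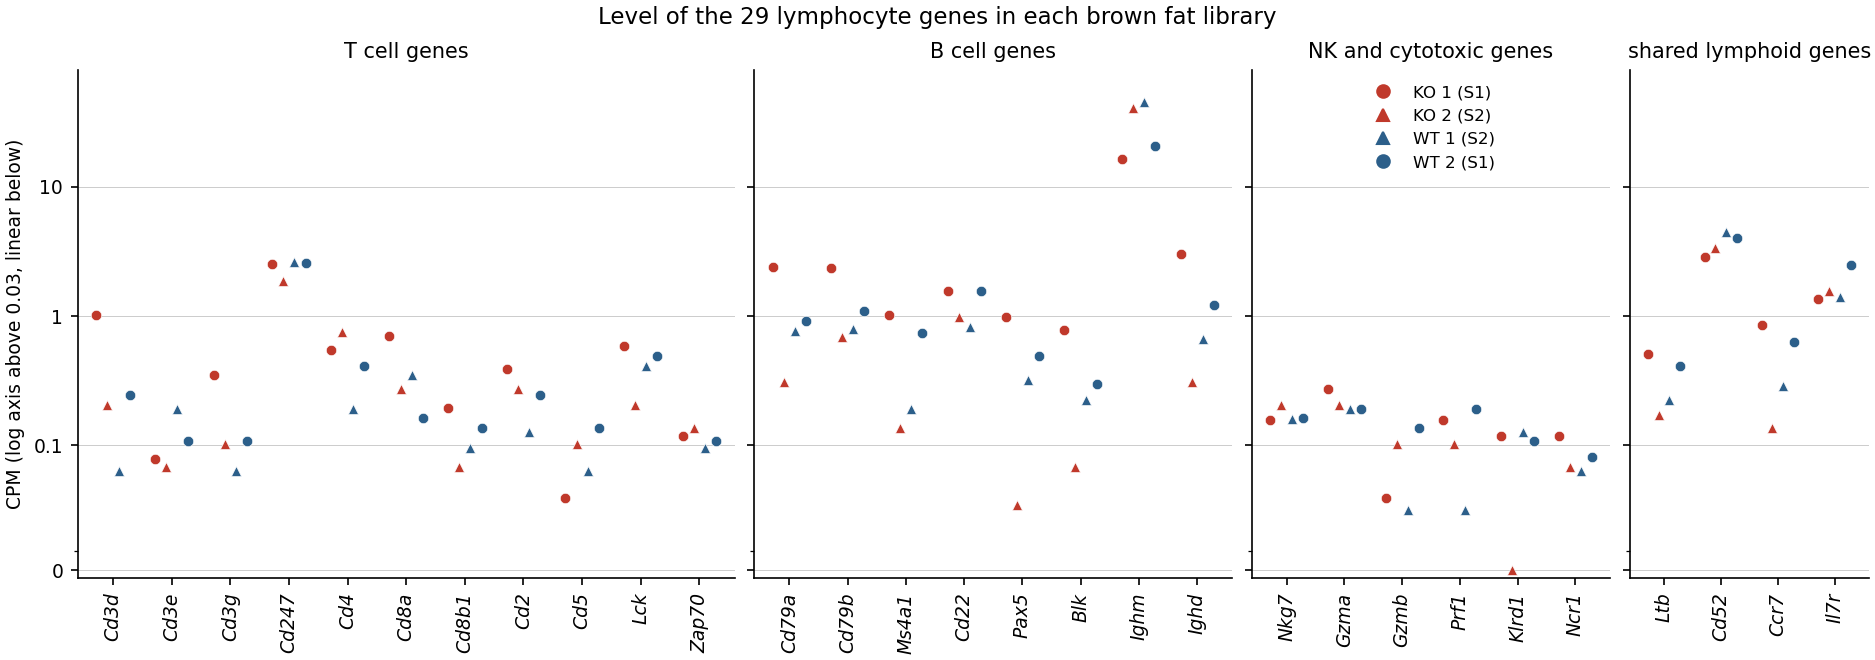
CPM of each of the 29 genes in each library (log axis above 0.03, linear below), with KO in red, WT in blue, S1 as circles and S2 as triangles. Ighm lies far above the rest, at 16.4 to 45.8 CPM, and is the B cell gene in which both S2 libraries lie above both S1 libraries.

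No lymphocyte gene passed the test between KO and WT, and the widest spread among them was in B cell genes between libraries of 1 genotype. Of the 15 tested genes, 0 passed in edgeR's quasi-likelihood test, where 0.78% of all tested genes passed, and each had an adjusted p of 0.9998. None of the 15 had an unadjusted p under 0.05 (4.02% of all tested genes), none passed in DESeq2 (1.39% of all tested genes) or limma-voom (0.818%), and none passed with the prefix as a block (2.05% of all tested genes). The libraries of the 2 genotypes did not overlap for 3 of the 15, where 26.3% of all tested genes did not overlap. These were Cd4, higher in both KO libraries (13.2% of all tested genes), and Cd247 and Cd52, lower in both (13.1%). The median log2 fold change was 0.09 over the 15 genes and 0.00197 over all genes tested. In whole tissue, fewer cells of a type and less RNA per cell cannot be told apart.

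Between the prefixes, S1 libraries held more Cd79a, Cd79b, Cd22 and Ighd and less Ighm, among the B cell genes whose direction the filter left free. The prefix test uses the same 4 libraries as the genotype test. Of the 15 tested genes, 0 passed in edgeR's quasi-likelihood test, where 0.00639% of all tested genes passed, and 4 had an unadjusted p under 0.05, where 15.5% of all tested genes did. The 4 were Ms4a1, Ighm, Ighd and Ccr7. With the genotype as a further term, 1 of the 15 passed, Ighm, where 3.14% of all tested genes passed. In DESeq2 Ighm passed too (3.5% of all tested genes). Of the 15, only Cd247, Ighm, Ighd, Cd52 and Il7r were given an adjusted p there, so the others could not pass. In limma-voom 0 of the 15 passed (0% of all tested genes). The S1 and S2 libraries were apart for 10 of the 15, where 53.2% of all tested genes were. Of these, 9 were higher in S1 (25.9% of all tested genes) and 1 lower (27.3%), but the direction of Ms4a1, Pax5, Ccr7 and Ltb was set by the filter, so nothing is read from this count. Among the other 11 tested genes, Lck, Cd79a, Cd79b, Cd22 and Ighd were higher in both S1 libraries and Ighm was lower, and Ighm and Ighd had an unadjusted p under 0.05. The median log2 fold change of S1 over S2 was 0.41 over these 11 genes, 1.20 over the 5 B cell genes among them and 0.30 over the 4 T cell genes, against 0.01 over all genes tested.

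**Figure D2:**
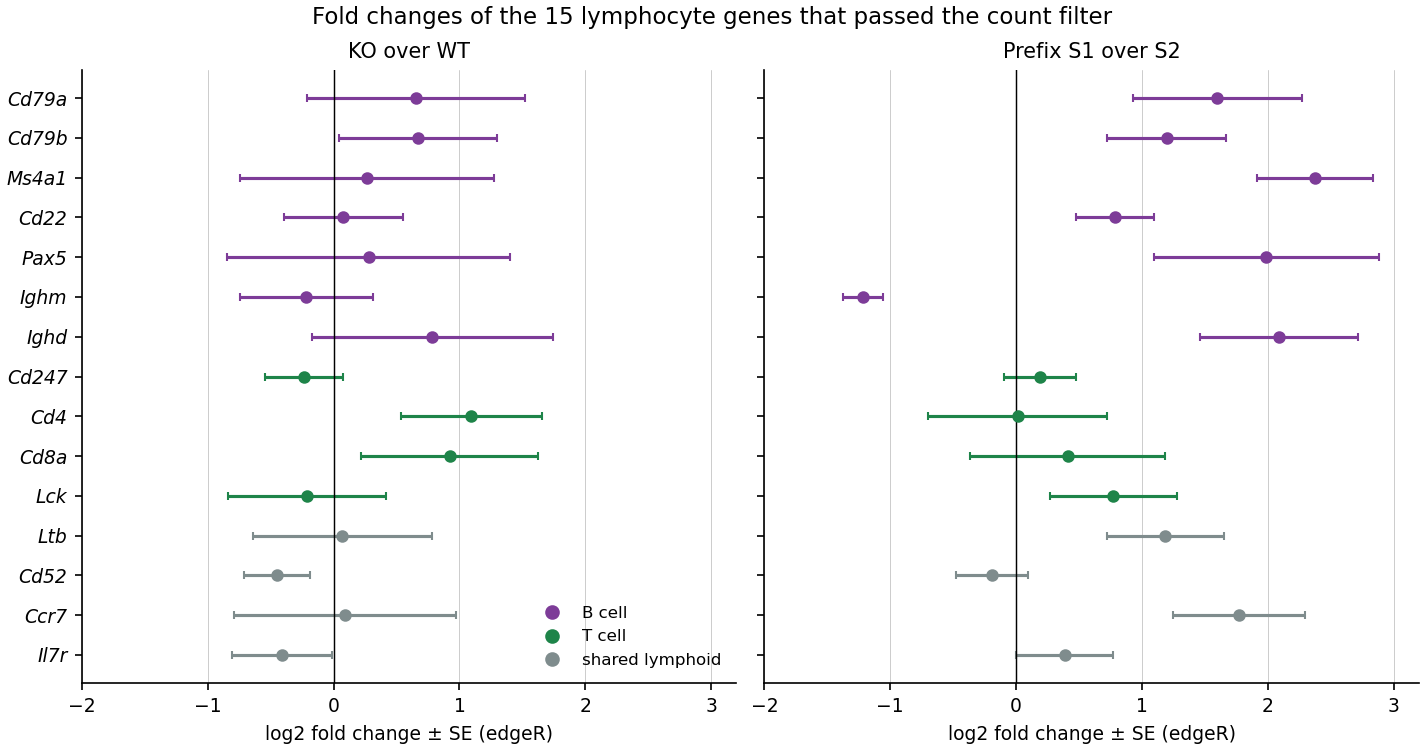
log2 fold change with its SE from edgeR for the 15 tested genes, KO over WT on the left and S1 over S2 on the right, coloured by class. On the left no gene passed and the estimates lie between -0.45 and 1.10. On the right 6 B cell genes lie between 0.78 and 2.37 and Ighm at -1.22, where Ms4a1, Pax5, Ccr7 and Ltb were tested only because of their S1 counts.

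The signalling partners of the B cell receptor were highest in KO 1 and lowest in KO 2. Cd79a (ENSMUSG00000003379, chromosome 7, 24897381 to 24902197, plus strand, GRCm38) had 2.38 CPM in KO 1 and 0.309 CPM in KO 2, against 0.765 in the library labelled WT 1 and 0.926 in WT 2. Its partner Cd79b (ENSMUSG00000040592, chromosome 11, 106311341 to 106314762, minus strand) had 2.35 CPM in KO 1 and 0.686 CPM in KO 2, against 0.797 in the library labelled WT 1 and 1.09 in WT 2. In both genes the 2 KO libraries lie on either side of both WT libraries. Means were 1.35 ± 1.47 CPM in KO and 0.845 ± 0.114 in WT for Cd79a, and 1.52 ± 1.17 in KO and 0.943 ± 0.207 in WT for Cd79b (SD, n = 2 each). KO over WT had a log2 fold change of 0.65 (SE 0.87) for Cd79a and 0.67 (SE 0.63) for Cd79b. Without KO 1 they were -1.45 and -0.46. The sign in both therefore rests on KO 1. The log2 fold change of S1 over S2 was 1.60 (SE 0.67, adjusted p = 0.341 in edgeR) for Cd79a and 1.20 (SE 0.48, adjusted p = 0.329) for Cd79b.

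Surface proteins of mature B cells had more counts in both S1 libraries. Ms4a1, which encodes the antibody target CD20, had 26 counts in KO 1 and 27 in WT 2, against 4 in KO 2 and 6 in the library labelled WT 1. That is 1.02 and 0.735 CPM in S1, against 0.137 and 0.191 CPM in S2, a log2 fold change of 2.37 (SE 0.46) that the filter set in direction. With no count filter, where entry did not rest on S1, adjusted p was 0.0185 in edgeR. Cd22, an inhibitory receptor that dampens B cell signalling, was at 1.56 CPM in KO 1 and 1.58 in WT 2, against 0.994 in KO 2 and 0.828 in the library labelled WT 1. Its log2 fold change was 0.78 for S1 over S2 (SE 0.31, adjusted p = 0.327) and 0.08 for KO over WT (SE 0.47).

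Pax5 and Blk, which act inside the B cell, spanned the widest range of levels among the B cell genes, at 28.5 and 11.4 times from the lowest to the highest library. Pax5, the transcription factor that holds B cell identity, had 25 counts in KO 1 and 1 in KO 2, against 10 in the library labelled WT 1 and 18 in WT 2. Blk, a kinase of the Src family that acts at the B cell receptor, had 20 and 2 counts in KO, against 7 and 11 in WT, and was not tested. For both genes the KO libraries enclose the WT libraries. The log2 fold change of Pax5 was 0.28 for KO over WT (SE 1.12), -3.43 without KO 1 and 1.25 without KO 2. For S1 over S2 it was 1.99 (SE 0.90), in a direction set by the filter, and with no filter adjusted p was 0.127 in edgeR. Over pooled counts Blk was 3.35 times as high in S1 as in S2, with a 95% counting interval of 1.56 to 7.99 that leaves out the spread between libraries.

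The heavy chain genes of naive B cells stood in opposite orders between the prefixes. Ighd (ENSMUSG00000104213, chromosome 12, 113406604 to 113416324, minus strand) followed the other B cell genes at 3.01 CPM in KO 1 and 0.309 CPM in KO 2, against 0.669 in the library labelled WT 1 and 1.23 in WT 2. Ighm (ENSMUSG00000076617, chromosome 12, 113418558 to 113422730, minus strand), its neighbour, had 16.4 CPM in KO 1 and 40.9 CPM in KO 2, against 45.8 in the library labelled WT 1 and 20.8 in WT 2. Ighd was thus highest where Ighm was lowest. For S1 over S2 the log2 fold change was 2.09 for Ighd (SE 0.63, adjusted p = 0.285 in edgeR) and -1.22 for Ighm (SE 0.16, adjusted p = 0.277). With the genotype as a further term Ighm passed at -1.23 (SE 0.15, adjusted p = 0.00387) and Ighd did not (adjusted p = 0.0828). Ighm also passed in DESeq2 (adjusted p = 1.36e-06) and with no count filter (adjusted p = 4.55e-05, where 3.06% of all genes tested passed), where Ighd passed too (adjusted p = 0.0153). For KO over WT the log2 fold change was -0.22 for Ighm (SE 0.53) and 0.79 for Ighd (SE 0.96), and both changed sign in some fits with 1 library left out. That of Ighm was -1.02 without KO 2 and 0.46 without the library labelled WT 1, and that of Ighd was -1.62 without KO 1.

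Other immunoglobulin genes had far fewer counts than Ighm. The ratio of Ighm to Ighd counts was 5.44 in KO 1 and 132 in KO 2, against 68.4 in the library labelled WT 1 and 17.0 in WT 2. The 113 heavy chain variable genes, which a productive heavy chain message needs, summed to 11 counts in each KO library, against 11 in the library labelled WT 1 and 20 in WT 2. Ighm thus had 38.1 and 108 counts in KO 1 and KO 2 for each heavy chain variable count, against 131 in the library labelled WT 1 and 38.3 in WT 2. The kappa light chain constant gene Igkc was at 7.62 and 4.26 TPM in KO, against 8.09 and 4.74 TPM in WT, and had no split by prefix. Ighm over Igkc in TPM was 1.32 in KO 1 and 6.76 in KO 2, against 3.92 in the library labelled WT 1 and 3.23 in WT 2. The 4 lambda constant genes summed to 22 and 2 counts in KO, against 7 and 19 in WT, highest in both S1 libraries as the other B cell genes were. Both annotated Ighm transcripts were lower in S1. The shorter one, of 1493 bases, had 162 and 308 estimated counts in S1 (KO 1 and WT 2), against 538 and 737 in S2 (KO 2 and the library labelled WT 1). The longer one, of 1698 bases, had 257 and 457 in S1, against 654 and 699 in S2. Near-identical variable genes can share reads in such estimates, so their single values are uncertain and only sums are given.

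As a class, the 7 B cell genes other than Ighm summed to 12.1 CPM in KO 1 (95% Poisson interval 10.8 to 13.5) and 2.54 in KO 2 (1.99 to 3.18), against 3.79 in the library labelled WT 1 (3.14 to 4.54) and 6.34 in WT 2 (5.55 to 7.21). The intervals cover counting error only, and overlap only between KO 2 and the library labelled WT 1. All 7 were higher in both S1 libraries than in both S2 libraries, as 25.9% of all tested genes were, while Ighm was lower. Blk was not tested and the filter set the direction of Ms4a1 and Pax5, so nothing is read from this count. Of the 7, 6 were highest in KO 1 and 6 lowest in KO 2. The log2 ratio of the sums was 0.53 for KO over WT, made up of 0.93 within S1 and -0.58 within S2. The log2 ratio of S1 over S2 was 1.54, at 2.25 within KO and 0.74 within WT. With Ighm included the sum was 28.5 and 43.4 CPM in KO, against 49.5 and 27.2 in WT, so 1 gene turns the prefix order of the class round.

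**Figure D3:**
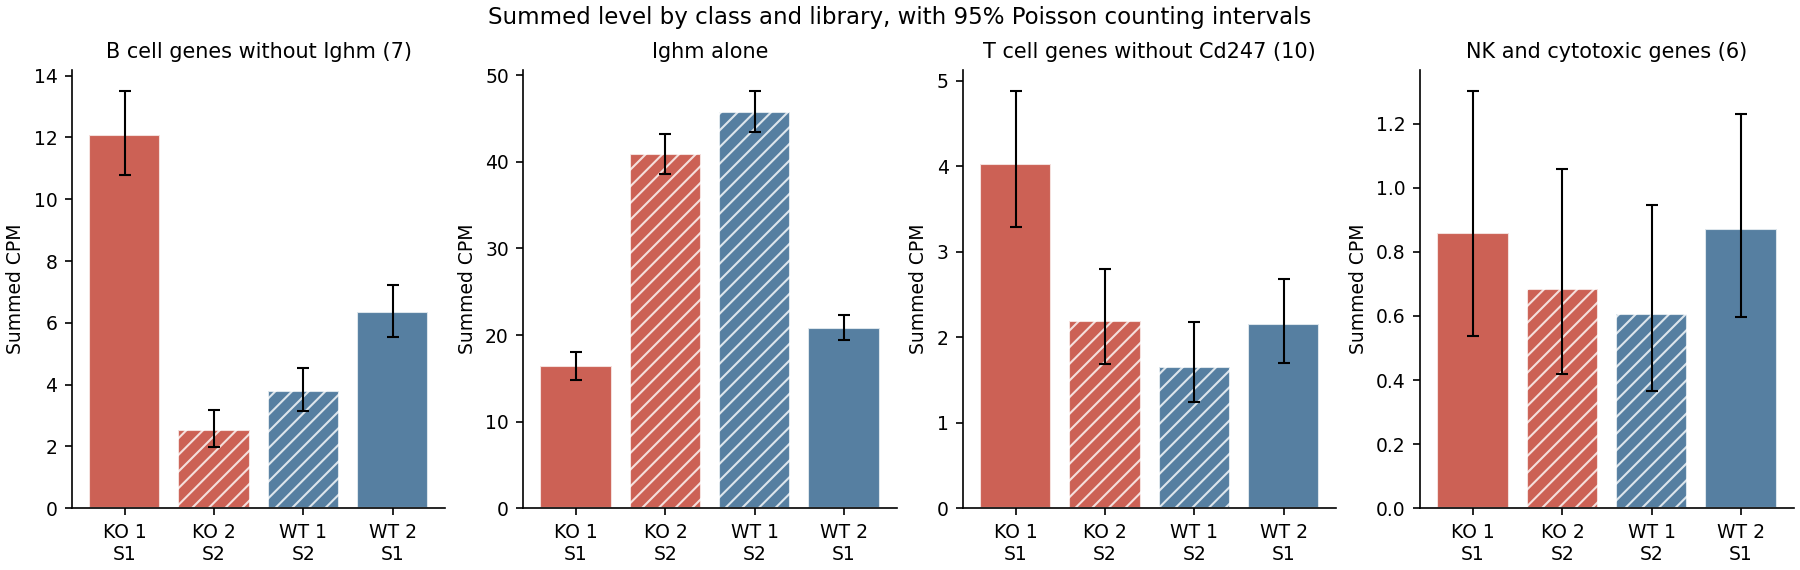
Summed CPM by library for the 7 B cell genes without Ighm, Ighm alone, the 10 T cell genes without Cd247 and the 6 natural killer and cytotoxic genes, KO in red, WT in blue, S2 hatched, with 95% Poisson counting intervals. The B cell sum is 12.1 CPM in KO 1 and 2.54 to 6.34 in the rest, and the natural killer sum stays between 0.605 and 0.871 CPM.

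The T cell receptor chains were sparse except for Cd247. Cd3d, Cd3e and Cd3g, the delta, epsilon and gamma chains of CD3, together had 37 counts in KO 1 and 11 in KO 2, against 10 in the library labelled WT 1 and 17 in WT 2, and none was tested. Cd3d alone had 26 and 6 counts in KO, against 2 and 9 in WT. Its pooled ratio of KO over WT was 3.62 (95% counting interval 1.78 to 7.96), but the libraries of the genotypes overlap and KO 1 holds most of the KO counts. Over the prefixes the pooled ratio of Cd3d was 4.25 (1.94 to 10.6) for S1 over S2. Of the 14 untested genes, Cd3d was the one whose counting interval excluded 1 between genotypes, and Cd3d and Blk were those between prefixes.

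Cd247, the zeta chain, had more counts than its partners. It was at 2.54 CPM in KO 1 and at 1.89 CPM in KO 2, against 2.61 in the library labelled WT 1 and 2.59 in WT 2, with 65 and 55 counts in KO and 82 and 95 in WT. Both KO libraries lie just below both WT libraries, with a log2 fold change of -0.23 (SE 0.31). In TPM it was at 1.63 and 1.77 in KO and 1.89 and 2.29 in WT, while Cd3e was at 0.0412 and 0.106 in KO and 0.315 and 0.278 in WT. Cd3e too was lower in both KO libraries than in both WT libraries, on 2 counts in each KO library and 6 and 4 in WT. Cd247 overlaps the transcription factor gene Pou2f1 on the opposite strand, which had 212 and 190 counts in KO and 283 and 326 in WT. The sources used here do not say whether the counting used strand, so the share of Pou2f1 reads in Cd247 was not tested.

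The co-receptors and signalling genes of T cells did not pass either comparison. Cd4, the co-receptor of helper T cells, which in mice marks some other myeloid and lymphoid cells too, had 0.547 CPM in KO 1 and 0.754 CPM in KO 2, against 0.191 in the library labelled WT 1 and 0.408 in WT 2. Both KO libraries lie above both WT libraries, on 14 and 22 counts against 6 and 15. The log2 fold change was 1.10 (SE 0.56, unadjusted p = 0.101, adjusted p = 0.9998 in edgeR), 0.37 within S1 and 1.68 within S2, and 0.67 without the library labelled WT 1. Cd8a, a chain of the co-receptor of cytotoxic T cells, was at 0.703 and 0.274 CPM in KO, against 0.351 and 0.163 in WT. Its partner Cd8b1 had 5 and 2 counts in KO and 3 and 5 in WT. Neither CD8 gene separates the genotypes, and the log2 fold change of Cd8a was 0.92 (SE 0.71) with opposite signs within S1 (1.75) and S2 (-0.29). Lck, the kinase that starts receptor signalling, was at 0.586 and 0.206 CPM in KO and 0.414 and 0.490 in WT, a log2 fold change of -0.21 (SE 0.63). Zap70, the kinase that Lck activates, had 3 and 4 counts in both genotypes. The adhesion receptor Cd2 had 10 and 8 counts in KO and 4 and 9 in WT, and the inhibitory receptor Cd5 had 1 and 3 in KO and 2 and 5 in WT. None of these last 3 was tested.

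Without Cd247 the 10 T cell genes summed to 4.03 CPM in KO 1 and 2.19 CPM in KO 2, against 1.66 in the library labelled WT 1 and 2.15 in WT 2. KO 1 stands highest, and the intervals of the other 3 libraries overlap each other (1.69 to 2.80 in KO 2, 1.24 to 2.17 in the library labelled WT 1 and 1.70 to 2.68 in WT 2). The log2 ratio was 0.71 for KO over WT, 0.90 within S1 and 0.41 within S2. The log2 ratio of S1 over S2 was 0.68. B cell genes without Ighm over T cell genes without Cd247, in CPM, were at a ratio of 3.0 in KO 1 and 1.16 in KO 2, against 2.29 in the library labelled WT 1 and 2.95 in WT 2. The ratio is lowest in KO 2 and of like size in the other 3.

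Genes of natural killer and cytotoxic cells were at 0 to 7 counts in every library. The granule protein Nkg7 had 4 and 6 counts in KO and 5 and 6 in WT. Granzyme A (Gzma) had 7 and 6 in KO and 6 and 7 in WT, and granzyme B (Gzmb) 1 and 3 in KO and 1 and 5 in WT. Perforin (Prf1) had 4 and 3 in KO and 1 and 7 in WT. The counts of the genotypes overlap in each of these genes. In CPM Gzma lay just higher in both KO libraries, at 0.274 and 0.206 against 0.191 and 0.191 in WT, and it was not tested. Of the receptors, Klrd1, which forms a dimer with NKG2 chains, had 3 counts in KO 1, was listed at 0 in KO 2 and had 4 in each WT library, and Ncr1, the activating receptor NKp46, had 3 and 2 in KO and 2 and 3 in WT. The 6 genes summed to 22 and 20 counts in KO, against 19 and 32 in WT, or 0.860 and 0.686 CPM in KO against 0.605 and 0.871 in WT. A difference between genotypes was not detectable at this depth, with all 4 Poisson intervals overlapping (0.365 to 0.945 CPM in the lowest library, 0.596 to 1.23 in the highest).

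The 4 shared lymphoid genes split by gene. Cd52, a small surface glycoprotein of lymphocytes and some myeloid cells, was at 2.85 and 3.36 CPM in KO, against 4.49 and 4.0 in WT. Both KO libraries lie below both WT libraries, with a log2 fold change of -0.45 (SE 0.26, unadjusted p = 0.139, adjusted p = 0.9998 in edgeR) that ranged from -0.57 to -0.34 with 1 library left out. Cd52 overlaps Crybg2 on the opposite strand, which had 6 and 11 counts in KO and 11 and 31 in WT. Il7r, the receptor for the survival cytokine IL-7, was at 1.37 and 1.58 CPM in KO and 1.40 and 2.50 in WT, a log2 fold change of -0.41 (SE 0.40) that was 0.07 without WT 2. Ccr7, the chemokine receptor that guides naive lymphocytes and dendritic cells into lymph nodes, had 22 counts in KO 1 and 23 in WT 2, against 4 in KO 2 and 9 in the library labelled WT 1. Ltb, the lymphotoxin beta subunit that shapes lymphoid tissue, had 13 in KO 1 and 15 in WT 2, against 5 in KO 2 and 7 in the library labelled WT 1. The log2 fold change of S1 over S2 was 1.77 for Ccr7 (SE 0.52) and 1.19 for Ltb (SE 0.47), in a direction set by the filter. With no filter neither passed in edgeR (adjusted p = 0.108 for Ccr7 and 0.466 for Ltb). Neither separates KO from WT, at 0.09 (SE 0.88) for Ccr7 and 0.07 (SE 0.71) for Ltb.

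Further genes of these cell types were few among the calls. Of 26 further B cell and plasma cell genes 12 were tested. For KO against WT and for S1 against S2 0 passed in edgeR, DESeq2 or limma-voom. At an unadjusted p under 0.05 in edgeR there were 1 and 4, where 4.02% and 15.5% of all tested genes were. Pou2af1, a B cell co-activator, had 19 and 15 counts in S1 (KO 1 and WT 2), against 2 and 0 in S2 (KO 2 and the library labelled WT 1), and entered the test through S1 alone. The most abundant of the 26 were Cd72, Blnk, Cd37 and Igkc. Cd72, an inhibitory B cell receptor, was higher in S1, at 9.81 and 6.89 CPM (KO 1 and WT 2), than in S2, at 3.91 and 5.77 CPM (KO 2 and the library labelled WT 1), but did not pass (log2 fold change 0.78, SE 0.28, adjusted p = 0.310 in edgeR). The libraries of the prefixes overlapped for Blnk, Cd37 and Igkc. Of 27 further T cell genes 10 were tested and 0 passed in either comparison in edgeR. At an unadjusted p under 0.05 there were 0 (4.02% of all tested genes) and 2 (15.5%). The T cell receptor constant genes, 8 in all, summed to 36 and 23 counts in KO and 22 and 45 in WT, and 144 T cell receptor variable genes to 3 and 0 in KO and 3 and 7 in WT. Of 16 further natural killer and cytotoxic genes 4 were tested and 0 passed in either comparison in edgeR, DESeq2 or limma-voom, with 0 at an unadjusted p under 0.05 and Il2rb, a receptor chain for IL-2 and IL-15, the most abundant at 0.508 to 0.572 CPM.

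Genes that many leukocytes share passed neither comparison in edgeR. Of 20 such genes 19 were tested, 0 passed in edgeR for KO against WT, with a median log2 fold change of -0.47, and 0 passed for S1 against S2, with a median of 0.14. At an unadjusted p under 0.05 there were 2 (4.02% of all tested genes) and 4 (15.5%). Ptprc, the leukocyte antigen CD45, was at 5.55 and 8.64 CPM in KO and 11.5 and 8.96 in WT.

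The summed levels of red cell, endothelial and macrophage genes were at an extreme in KO 1 as well. The 5 red cell genes summed to 2026 CPM in KO 1 and 908 CPM in KO 2, against 1131 in the library labelled WT 1 and 1069 in WT 2, with 0 of 5 passing in edgeR, DESeq2 or limma-voom in either comparison and 0 at an unadjusted p under 0.05 in edgeR. The 6 endothelial genes summed to 1076 and 689 CPM in KO, against 626 and 824 in WT, highest in both S1 libraries. Of the 6, 0 passed for KO against WT in edgeR, DESeq2 or limma-voom. For S1 against S2 0 passed in edgeR, with 5 at an unadjusted p under 0.05 (15.5% of all tested genes), and 0 in limma-voom. In DESeq2 3 were higher and 1 lower, where 3.5% of all tested genes passed in either direction. With the genotype as a further term Kdr and Vwf were higher (1.55% of all tested genes) and Cldn5 lower (1.59%). Cldn5, a protein of endothelial tight junctions, was at 27.9 and 14.5 CPM in S1 (KO 1 and WT 2), against 68.4 and 72.4 in S2 (KO 2 and the library labelled WT 1), opposite to the sum. The 12 macrophage genes summed to 121 CPM in KO 1 and 352 CPM in KO 2, against 418 in the library labelled WT 1 and 291 in WT 2. Of the 12, 0 passed in edgeR, DESeq2 or limma-voom in either comparison. At an unadjusted p under 0.05 in edgeR there were 1 (4.02% of all tested genes) and 2 (15.5%). With the genotype as a further term 5 of 12 passed as lower in S1 (1.59% of all tested genes). In KO 1 the sums of B cell genes without Ighm, T cell genes without Cd247 and red cell genes were thus at their highest and the macrophage sum at its lowest. The part of blood, vessels and macrophages in the lymphocyte values was not tested. Among all genes the one that passed between the prefixes was Dbp, an output factor of the circadian clock, a gene picked once its values were known. Dbp had 51.8 CPM in KO 1 and 45.4 in WT 2 (S1), against 3.19 in KO 2 and 3.76 in the library labelled WT 1 (S2), with a log2 fold change of 3.8 and an SE of 0.16 (adjusted p = 0.033 in edgeR). Its relation to the lymphocyte values was not tested.

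**Figure D4:**
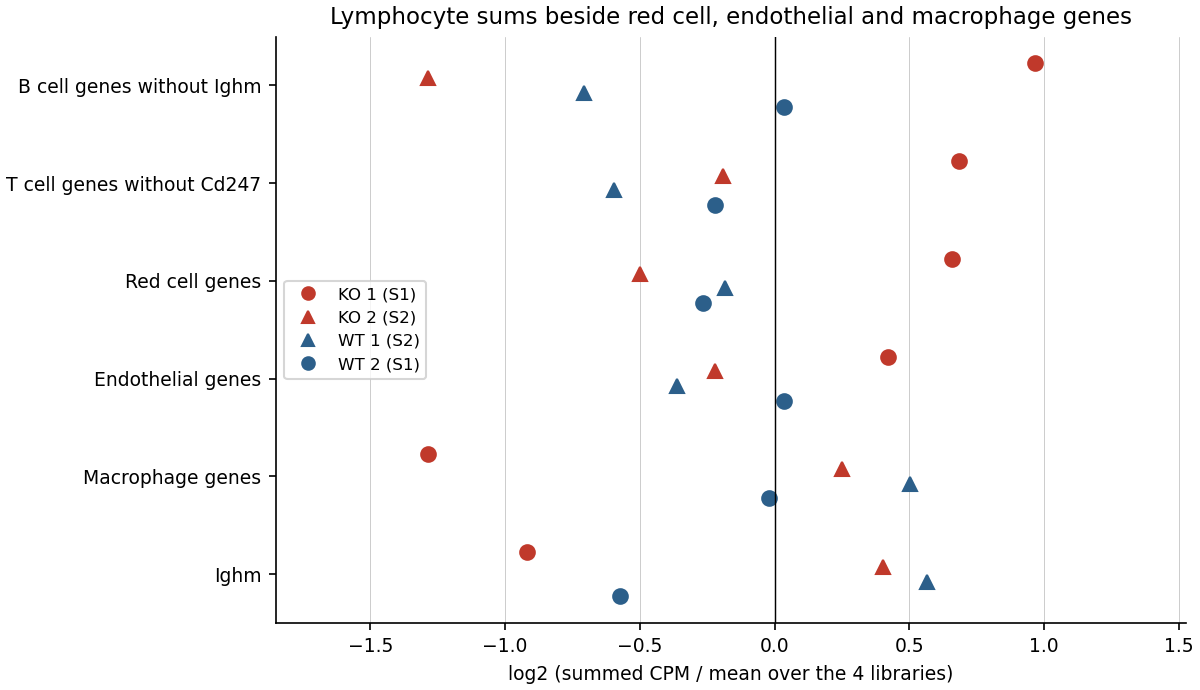
log2 of the summed CPM of each list, or of Ighm alone, over its mean across the 4 libraries, with KO in red, WT in blue, S1 as circles and S2 as triangles. KO 1 is the highest library for B cell genes without Ighm, T cell genes without Cd247, red cell genes and endothelial genes and the lowest for macrophage genes and Ighm.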

How the data were processed

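Messenger RNA was sequenced from brown adipose tissue in 4 libraries, 2 KO and 2 WT, grouped by the titles. RNA came from TRIzol extracts purified on RNeasy columns, and libraries from a stranded TruSeq kit, per the labels' protocols. The tool was kallisto 0.45.0 and the genome build mm10, per the submitters' processing notes. The sources used here do not give the transcript set or the strand setting. Each library's table lists 141450 transcripts, with the estimated count and the TPM value that the authors deposited for each, per the file headers. kallisto splits reads that fit several transcripts, so that 87.4 to 88.5% of the deposited estimated counts above 0 had a fractional part.

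GENCODE vM21 genes (GRCm38) were assigned by Ensembl identifier, which matched 97.7% of the transcripts. Between 0.992 and 1.04% of a library's counts lay in unmatched transcripts, which were left out. Gene totals of estimated counts were rounded. The libraries held 25985367 (KO 1), 30405113 (KO 2), 32714456 (WT 1) and 34813870 (WT 2) estimated counts.

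The test was edgeR 4.0.16's quasi-likelihood test (R 4.3.3) with TMM scaling and filterByExpr (minimum count 10, minimum total 15), with Benjamini-Hochberg adjustment over 15643 genes and a threshold of 0.05. Genotype, then prefix, was the sole term. Fits with both terms leave 1 residual degree of freedom, so their SEs rest largely on variation pooled across genes. SEs come from the fold change and its F statistic. The labels do not tie the libraries to separate animals, so p-values may reflect technical spread alone. CPM used TMM-scaled library sizes, and differences within a prefix or genotype used log2 CPM with a prior count of 2, except for sums, which had none. Intervals of 95% are exact Poisson or, for ratios, exact conditional binomial, and cover counting error only. With 2 libraries a group a permutation test of sums cannot reach 0.05, so sums have no p. The edgeR steps were tested on simulated counts.

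All 29 members are named. Of 14 other lists, up to 4 genes of highest mean CPM and up to 2 of smallest p are named where they bear on lymphocyte genes, and the results of some of these genes are not reported here. The members, the lists and the comparisons were chosen with earlier results of these data known. Alternatives were DESeq2 1.42.0 and its size factors, limma-voom and limma on log2(TPM + 1) and log2(TPM + 0.1) (limma 3.58.1), no filter, at least 1 CPM in 2 libraries, leaving out mitochondrial and the 10 most abundant genes, a replicate block, both terms, and leaving out each library. Promoters are RefSeq's, GRCm38.p6, and motifs were searched on both strands.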

Additional observations from a re-analysis of the deposited data

Results flagged for a closer look

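In 3 B cell genes and in the sum of the B cell genes without Ighm, KO lay above WT within S1 and below it within S2, by at least 0.5 on the log2 scale on each side. With 1 library of each genotype in a prefix, the difference between the prefixes was not tested. Cd79a was 1.31 higher in KO 1 than in WT 2 and differed by -1.15 between KO 2 and the library labelled WT 1, a gap of 2.46 on the log2 scale. For Pax5 the differences were 0.91 within S1 and -1.95 within S2, a gap of 2.86 that rests on 1 count in KO 2. For Ighd they were 1.25 within S1 and -0.97 within S2, a gap of 2.23. The sum of the 7 B cell genes without Ighm differed by 0.93 within S1 and by -0.58 within S2, a gap of 1.51.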

How the results depend on the processing

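Of the 15 tested lymphocyte genes, 0 passed for KO against WT in any of 202 gene and setting combinations. For S1 against S2 5 combinations passed, namely Ighm in 3 and Ms4a1 and Ighd in 1 each. In DESeq2 the S1 against S2 combinations could pass only for Cd247, Ighm, Ighd, Cd52 and Il7r, as the others had no adjusted p. Over all genes, 122 passed for KO against WT, against 457 with no filter (more genes tested), 320 with the prefix as a block, 218 in DESeq2 and 78 (without KO 2) to 205 (without WT 2) with 1 library left out, 187 without the library labelled WT 1. For S1 against S2 1 passed, against 823 with no filter, 491 with the genotype as a further term, 548 in DESeq2, 0 in limma-voom (2394 at an unadjusted p under 0.05) and 0 to 1 with 1 library left out (1115 to 3653 at an unadjusted p under 0.05). With the replicate number as a block, counts were 164 for KO against WT and 0 for S1 against S2 (1912 at an unadjusted p under 0.05), and 0 lymphocyte genes passed. Deviations from group means correlated at -0.38 for equal numbers and 0.38 for equal prefixes. With 2 libraries a genotype these are the same value with its sign turned, so they cannot exclude a pairing by number. The crossed pairing is the prefix block. The log2 ratio of class sums for T cell genes was 0.24 for KO over WT, against 0.71 without Cd247, -0.23 for Cd247 alone and -0.14 to 0.54 with 1 library left out, the lowest without KO 1. For S1 over S2 it was 0.44, against 0.68, 0.19 and 0.18 to 0.65. For B cell genes it was -0.09 for KO over WT, 0.53 without Ighm and -0.46 (without WT 2) to 0.40 (without the library labelled WT 1) with 1 library left out, and for S1 over S2 -0.74, against 1.54 without Ighm, -1.04 for members with at least 10 counts in every library and -0.83 to -0.64 with 1 library left out. For cytotoxic genes S1 over S2 was 0.42, against 0.13 in TPM and 0.34 to 0.52 with 1 library left out. No cytotoxic gene had 10 counts in every library, so that setting gave no value. The causes were not tested. Counts under 10 limit what can be seen for 23 of the 29 genes.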

Other observations

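Genes of plasma cells and of class-switched antibody were low. Igha, the constant gene of IgA, had 5 and 3 counts in KO, against 19 and 17 in WT, so both KO libraries lie below both WT libraries. Its log2 fold change of KO over WT was -1.83 (SE 0.59). It entered the test through the WT libraries alone, so its direction was fixed by the count filter, and it did not pass (adjusted p = 0.935 in edgeR). Jchain, which joins IgA and IgM into polymers, had 6 and 9 counts in KO and 23 and 11 in WT, and Mzb1, a chaperone of antibody secretion, had 2 and 1 in KO and 4 and 1 in WT. Ighg2c was listed at 0 in all 4 libraries.

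Genes of lymph node stroma and of immature lymphocytes were measured as markers of lymphoid tissue beside the fat. Of 8 lymph node stroma genes found, Glycam1 and Chst4, made by high endothelial venules, were listed at 0 in all 4 libraries. Ccl21a, a chemokine of lymph node stroma and lymphatic vessels, was at 3.09 and 3.36 CPM in KO and 4.17 and 5.85 in WT, with a log2 fold change of -0.64 and an SE of 0.28 (adjusted p = 0.9998 in edgeR). Cxcl13, the B cell attractant of follicles, had 4 and 6 counts in KO and 3 and 25 in WT. Rag1 and Dntt, which act in receptor gene assembly, were listed at 0 in all 4 libraries, while Rag2, the partner of Rag1, had 32 and 13 counts in KO and 11 and 25 in WT.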
